A study of Mus musculus with 6 samples.

Results

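Tetraspanins are small membrane proteins that gather integrins, receptors and proteases into patches of the cell surface and of endosomes. Their transcripts were followed here through 10 genes of the family: Upk1b, Cd9, Cd63, Cd81, Cd37, Cd53, Cd82, Cd151, Tspan3 and Tspan4. They were taken by name from the 49585 genes that the count tables list. The list was selected on gene names and, for Upk1b and Cd63, on the difference in their counts between the groups, which was already known, so the values of these 2 genes are given as a description with no test. All 10 were matched to an annotated mouse gene, and all 10 passed the filter on low counts. Upk1b passed it through the WT libraries alone. The mouse family holds 21 further genes in these tables, of which 13 passed the filter.

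The study compared microglia, the resident macrophages of the brain, of WT mice with those of mice labelled IRF8KO, a knockout of the transcription factor IRF8. Each group has 3 libraries, all from male mice aged 3 months, and each brain gave its own cells. No enzyme was used to free the cells, which went through a flow cytometry sort into TRIzol. The labels name neither the allele nor the strain, and no other treatment or alteration is given for either group.

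Tetraspanins carry little signal of their own and act through the proteins they hold. CD9 and CD81 pair with immunoglobulin-domain proteins and integrins at the surface, CD151 binds laminin-binding integrins tightly, and CD63 cycles between the surface, late endosomes and secreted vesicles. CD37 and CD53 are largely restricted to blood and immune cells. Uroplakin 1b, the product of Upk1b, is best known from the plaques that line the bladder.

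Depth lay between 3658917 and 11098363 gene counts per library. Irf8 itself was counted in every library, with 4084, 12022 and 10179 counts in the WT libraries against 4628, 7243 and 7834 in IRF8KO. The genotype could not be read from it, so each direction given here rests on the labels. Apoe took 25.5% to 33.7% of the counts in the IRF8KO libraries and at most 0.324% in WT, which makes the scaling between libraries matter. Levels are given as CPM, a count per library size after TMM scaling, on a scale of 1000 times 1000. A difference is an IRF8KO to WT log2 fold change from edgeR with its standard error (SE), and a gene was called at an adjusted p under 0.05 over 11041 tested genes. Markers of other cells also differed between the groups. The summed level of 12 markers of border-associated macrophages was 610 to 836 CPM in WT and 3812 to 4992 CPM in IRF8KO. All 9 that passed the filter were called higher, but several of them, among them Cd163 and F13a1 with 0 WT counts, passed it through IRF8KO alone, so nothing is read from that count. The 2 most abundant in IRF8KO were Stab1 and Pf4, and Stab1 made up most of the sum in WT. Lyve1 and Cd209f, which also mark these cells, had 0 counts in all 6 libraries. Of 12 microglial markers, 1 was called higher and 5 lower, beside 9.64% and 9.46% of all tested genes. Their summed level was 45284 to 77324 CPM in WT and 38026 to 53589 CPM in IRF8KO, and Sall1, among the lower, passed the filter through WT alone, with 0 counts in IRF8KO. The summed level of neuronal markers was 0.637 to 12.3 CPM in WT and 30.3 to 50.3 CPM in IRF8KO, and that of monocyte markers 0.414 to 1.49 CPM and 1.95 to 46.1 CPM, where IRF8KO replicate 2 was the highest. Endothelial markers summed to 25.2 to 31.5 CPM and 45.9 to 60.5 CPM, and its genes moved both ways: Ly6a rose, Pecam1 fell, Flt1 had 0 counts in WT and 5, 88 and 59 in IRF8KO, and Cdh5 and Slco1a4 had 3 counts each in WT and 0 in IRF8KO. The IRF8KO libraries by themselves would not have carried Pecam1 past the filter. The sums of astrocyte, oligodendrocyte and red blood cell markers overlapped between the groups. Of the 5 tested astrocyte markers, Gfap, Clu and Slc1a2 were called higher and Slc1a3 lower, where Slc1a2 passed the filter through IRF8KO alone. The WT libraries by themselves would not have carried Gfap past the filter either, since replicate 2 fell short. The part of these markers in the tetraspanin results was not tested, and in bulk samples fewer cells of a type cannot be told apart from less RNA per cell.

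Promoters are shown for 3 members that hold the same motif, chosen after the search, and for Cd63 and Cd9. RefSeq windows on build GRCm38.p6, from 250 bases before to 50 bases after a transcript start, were found for 9 members, 14 windows in all, and Upk1b was not matched. The first 3 below, of Cd53 (chr3:106790100-106790399, minus strand), Cd37 (chr7:45238790-45239089, minus strand) and the third of 4 Cd82 windows (chr2:93461802-93462101, minus strand), hold the letters GAGGAAGT, a motif of the Ets factor PU.1. Capitals mark that motif on either strand and, in Cd37, CACGTG, and the GC box of Cd37 is left in lower case.
Cd53: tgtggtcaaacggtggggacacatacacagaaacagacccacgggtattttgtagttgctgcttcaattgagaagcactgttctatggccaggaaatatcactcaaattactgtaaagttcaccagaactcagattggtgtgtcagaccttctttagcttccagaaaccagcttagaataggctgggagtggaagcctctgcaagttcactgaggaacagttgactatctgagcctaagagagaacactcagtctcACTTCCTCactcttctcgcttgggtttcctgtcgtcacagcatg
Cd37: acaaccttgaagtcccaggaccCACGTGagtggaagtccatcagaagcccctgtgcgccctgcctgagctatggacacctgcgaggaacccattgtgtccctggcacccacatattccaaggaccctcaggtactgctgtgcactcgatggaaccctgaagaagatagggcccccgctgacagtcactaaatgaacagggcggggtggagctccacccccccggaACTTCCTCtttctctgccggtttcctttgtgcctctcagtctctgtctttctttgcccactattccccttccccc
Cd82: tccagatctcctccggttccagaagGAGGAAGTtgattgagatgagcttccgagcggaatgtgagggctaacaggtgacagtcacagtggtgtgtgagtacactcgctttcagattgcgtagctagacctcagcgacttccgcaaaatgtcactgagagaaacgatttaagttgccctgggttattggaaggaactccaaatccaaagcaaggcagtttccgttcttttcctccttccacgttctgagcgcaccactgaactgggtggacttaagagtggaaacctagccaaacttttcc
The windows of Cd63 (chr10:128909095-128909394, plus strand) and Cd9 (chr6:125494711-125495010, minus strand) are set beside them because both genes were higher in IRF8KO. Capitals in Cd9 mark GGGCGG, the GC box, and Cd63 holds none of the letters searched. The Cd63 window lies inside the GENCODE gene, whose first start is further upstream.
Cd63: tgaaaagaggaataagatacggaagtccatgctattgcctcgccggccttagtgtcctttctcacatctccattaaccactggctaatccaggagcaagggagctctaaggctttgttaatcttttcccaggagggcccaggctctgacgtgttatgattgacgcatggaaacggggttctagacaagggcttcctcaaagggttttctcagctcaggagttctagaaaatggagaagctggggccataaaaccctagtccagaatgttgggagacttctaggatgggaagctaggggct
Cd9: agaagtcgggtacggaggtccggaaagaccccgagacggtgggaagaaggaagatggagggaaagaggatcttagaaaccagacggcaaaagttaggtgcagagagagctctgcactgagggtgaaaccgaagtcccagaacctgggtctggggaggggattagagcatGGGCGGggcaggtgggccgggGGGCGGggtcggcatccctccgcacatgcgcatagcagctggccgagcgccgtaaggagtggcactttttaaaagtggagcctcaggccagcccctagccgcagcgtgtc
The PU.1 letters lay at -25 to -18 from the start in Cd37 and at 7 to 14 in Cd53, on the other strand in both, and at -225 to -218 in Cd82. Among all 32851 windows of the table, searched on both strands, 3.20% hold GAGGAAGT. The interferon response element, read as GAAA, any 2 bases and GAAA (3.44% of all windows), and the Ets-IRF composite element, read as GGAA, any 2 bases and GAAA (2.72%), were in no window of the 9 members, which says only that these letters are not there. The E-box letters CACGTG (7.15%) were in Cd37 and Tspan4, and the AP-1 letters TGANTCA (7.81%) in Tspan4. The GC box GGGCGG (35.7%) was in windows of Cd9, Cd81, Cd37, Cd82, Cd151 and Tspan4. GAGGAAGT and the composite element share GGAA and can overlap. The ratio of observed to expected CpG ran over the 14 windows from 0.168 in the second of Cd151 to 0.863 in the first of Tspan4, with 0.248 in Cd53, 0.334 in Cd63, 0.336 in Cd37 and 0.689 in Cd9, against a median of 0.384 over all windows. A match is a description of letters and not a bound site.

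Upk1b was counted in every WT library and in no IRF8KO library. The gene (ENSMUSG00000049436, chr16:38773184-38800328, minus strand) had 748, 2502 and 736 counts in WT replicates 1, 2 and 3, or 146, 177 and 101 CPM. The IRF8KO libraries had 0 counts each, and 0 counts allow up to 0.482, 0.269 and 0.325 CPM in replicates 1, 2 and 3. The groups do not overlap. The WT mean was 141 ± 38.0 CPM (SD, n = 3). With the 3986 WT counts pooled and scaled, and a floor of 3 counts over the IRF8KO group, Upk1b was at least 1332.5-fold lower in IRF8KO. Within WT the highest library stood 1.75 times above the lowest. Upk1b in WT did not come with the other uroplakins. Upk2, Upk3a and Upk3b, which encode further uroplakins, had 0 counts in all 6 libraries. Upk1a, the nearest relative of Upk1b, had 6 counts in WT replicate 2 and none elsewhere.

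Cd63 stood at the other end. The gene (ENSMUSG00000025351, chr10:128900989-128912822, plus strand), whose protein is sorted into late endosomes and secreted vesicles, had 293, 310 and 468 CPM in WT replicates 1, 2 and 3. In IRF8KO replicates 1, 2 and 3 it had 2432, 1706 and 2555 CPM. The lowest IRF8KO library lay well above the highest WT library. The means were 357 ± 96.6 and 2231 ± 459 CPM (SD, n = 3 each), and the fitted log2 fold change was 2.64 (SE 0.35), or 6.25-fold. In all 18 alternatives it lay between 2.16 and 2.92. A pseudogene copy, Cd63-ps, had 255 counts over all 6 libraries, where Cd63 had 9280 counts in WT and 57724 in IRF8KO. Reads that fit both genes were not examined.

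**Figure D1:**
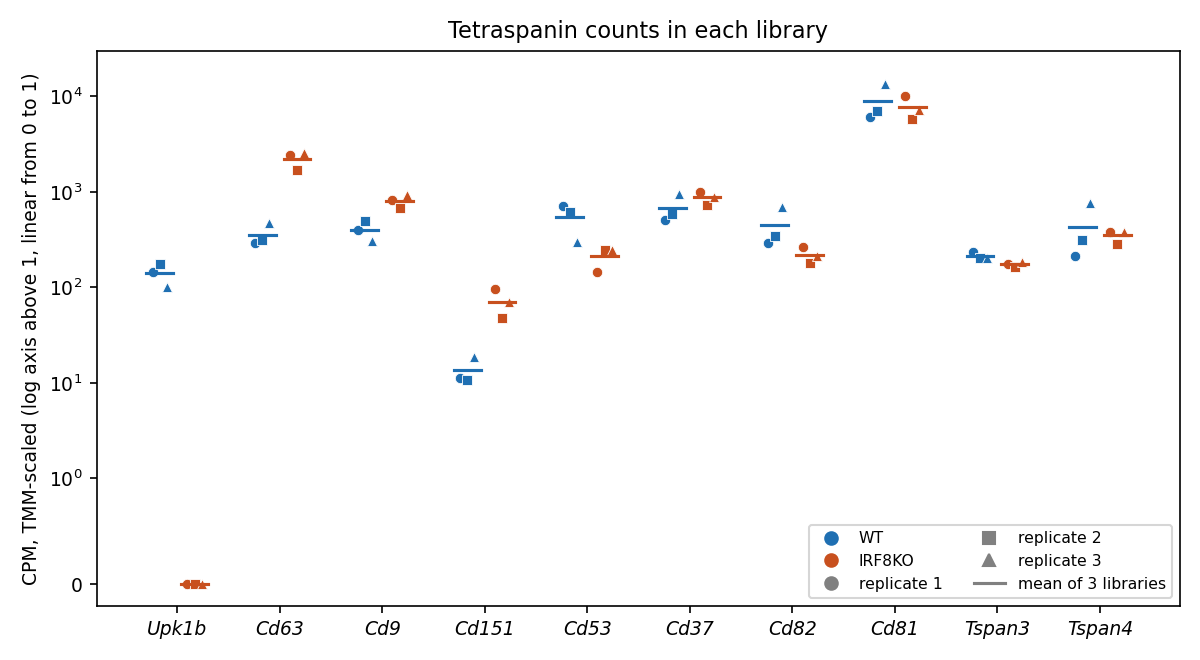
Level of the 10 tetraspanin genes in each library, in CPM on a log axis that is linear from 0 to 1, by group (WT blue, IRF8KO orange; each point is a library, its shape the replicate, and lines are means of 3 libraries). Upk1b has 0 counts in the 3 IRF8KO libraries, and Cd63 reaches 1706 to 2555 CPM there against 293 to 468 CPM in WT.

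Of the 10 members, 3 were called higher and 2 lower, beside 9.64% and 9.46% of all tested genes, or 19.1% in either direction. Upk1b and Cd63 are among these 5 and were known beforehand, so nothing is read from the count. The median log2 fold change of the 10 was -0.25, beside -0.11 over all tested genes. Values of the groups did not overlap for 7 members, 3 higher and 4 lower, against 20.0% and 17.9% of all tested genes, 37.9% in all.

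Among the surface tetraspanins that hold integrins, Cd151 and Cd9 rose. Cd151 (ENSMUSG00000025510, chr7:141467392-141471473, plus strand), the partner of laminin-binding integrins, had 11.3, 10.8 and 18.5 CPM in WT replicates 1, 2 and 3 and 95.7, 47.5 and 69.5 CPM in IRF8KO replicates 1, 2 and 3. It was low in every WT library, and the smallest IRF8KO value was still above the largest WT value. The log2 fold change was 2.39 (SE 0.36; edgeR, Benjamini-Hochberg adjusted p = 8.8e-04), and its adjusted p stayed at or under 0.0094 in all 18 alternatives. Cd9 (ENSMUSG00000030342, chr6:125460266-125494791, minus strand), which also takes part in membrane fusion and adhesion, had 402, 490 and 306 CPM in WT and 827, 675 and 931 CPM in IRF8KO. Its groups do not overlap, with a log2 fold change of 1.02 (SE 0.31; adjusted p = 0.0371, edgeR, Benjamini-Hochberg). That call was lost in 5 of the 6 fits that left out 1 library, without WT replicate 1 or 2 or any IRF8KO library, with an adjusted p up to 0.169. It was also lost when library size alone scaled the counts, at 0.46. Of the exonic length of Cd9, 10.7% is shared with Gm26728, and the counts do not tell strands apart.

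Cd81, the most abundant member, did not pass the test. Cd81 (ENSMUSG00000037706, chr7:143052739-143067934, plus strand), a partner of CD9 and of adhesion receptors, had 6081, 7084 and 13377 CPM in WT replicates 1, 2 and 3. In IRF8KO replicates 1, 2 and 3 it had 9961, 5825 and 7231 CPM. WT replicate 3 was the highest of all, and the groups overlap. The means were 8847 ± 3954 and 7673 ± 2103 CPM, with a log2 fold change of -0.21 (SE 0.42; adjusted p = 0.767, edgeR, Benjamini-Hochberg). Without WT replicate 3 the sign turned, to 0.24.

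Of the tetraspanins best known from blood and immune cells, Cd53 fell, and Cd37 and Cd82 were not called. Cd53 (ENSMUSG00000040747, chr3:106759921-106790149, minus strand), found on most leukocytes, had 706, 617 and 296 CPM in WT and 145, 248 and 245 CPM in IRF8KO, replicates in order. WT replicate 3 lay close to the IRF8KO values, though the groups do not overlap. Cd53 fell by 1.34 on the log2 scale (SE 0.37; adjusted p = 0.0267, edgeR, Benjamini-Hochberg). Of the 6 fits without 1 library, only the one that left out WT replicate 3 kept the call, at -1.59. The adjusted p reached 0.133 in the others (without WT replicate 1 or 2, or any IRF8KO library; edgeR, Benjamini-Hochberg). With an offset for GC content it was -0.53 and no longer called (adjusted p = 0.0978, edgeR, Benjamini-Hochberg). The longest transcript of Cd53 has the lowest GC content of the 10 members, 40.0%. The summed level of 8 lymphocyte markers was lower in IRF8KO as well, at 519 to 859 CPM in WT and 29.6 to 40.9 CPM in IRF8KO. Ighm made up most of the sum in WT, at 454, 556 and 757 CPM. Ighm and Cd79b, the 2 that could be tested, fell. Cd79a was near 0 in both groups, with 1, 1 and 3 counts in WT and 1, 2 and 3 in IRF8KO. Cd3d had 2 counts, all in WT, and Nkg7 had 5, all in IRF8KO. Ms4a1, Cd3e and Cd8a had 0 counts in all 6 libraries. The part of these markers in the values of Cd53, Cd37 and Cd82 was not tested.

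Cd37, which acts in B cell and dendritic cell biology, was not called. Cd37 (ENSMUSG00000030798, chr7:45233632-45239115, minus strand) had 504, 583 and 952 CPM in WT and 998, 737 and 892 CPM in IRF8KO. The groups overlap through WT replicate 3, with a log2 fold change of 0.36 (SE 0.33; adjusted p = 0.474, edgeR, Benjamini-Hochberg). Without that library it was 0.72 and called (adjusted p = 0.0148, edgeR, Benjamini-Hochberg), and with library size alone it was -0.10. Cd82 (ENSMUSG00000027215, chr2:93419111-93463140, minus strand), known as a suppressor of cell motility, had 293, 346 and 695 CPM in WT and 265, 181 and 215 CPM in IRF8KO. Each IRF8KO library was below each WT library, yet the log2 fold change of -1.01 (SE 0.36) missed the threshold (adjusted p = 0.0696, edgeR, Benjamini-Hochberg). Without WT replicate 3 it was -0.51, and in 8 of the 18 alternatives it was called.

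Tspan3 and Tspan4, which are made in many tissues, did not pass the test. Tspan3 (ENSMUSG00000032324, chr9:56131725-56165477, minus strand) had 233, 204 and 202 CPM in WT and 174, 163 and 183 CPM in IRF8KO. It was the steadiest member, and its small gap between the groups left no overlap. The log2 fold change was -0.30 (SE 0.26; adjusted p = 0.456, edgeR, Benjamini-Hochberg), and 0.02 with the offset for GC content. Tspan4 (ENSMUSG00000025511, chr7:141475240-141493427, plus strand), whose protein is abundant on the migrasomes that moving cells leave behind, had 215, 309 and 759 CPM in WT and 379, 287 and 380 CPM in IRF8KO. WT replicate 3 stood 3.53 times above WT replicate 1, and the groups overlap. The log2 fold change was -0.30 (SE 0.42; adjusted p = 0.662, edgeR, Benjamini-Hochberg), and 0.44 without WT replicate 3. Of its exonic length, 13.4% is shared with Chid1.

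Cd151, which rose, and Tspan4, which was not called, lie 3766 bases apart on chromosome 7. The difference between their changes was not tested. For every 100 counts of Tspan4 in the same library there were 5.24, 3.50 and 2.43 counts of Cd151 in WT replicates 1, 2 and 3. In IRF8KO replicates 1, 2 and 3 there were 25.2, 16.5 and 18.3. This ratio needs no scaling between libraries, and its groups do not overlap. Cd81 has Tspan32 as a tetraspanin neighbour, 33094 bases away, and Tspan32 rose where Cd81 was not called. Near Cd82, 84605 bases away, Tspan18 fell.

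WT replicate 3 stood apart from WT replicates 1 and 2 for most members. It was higher for Tspan4, Cd82 and Cd81, by 1.55, 1.13 and 1.03 on the log2 scale, and lower for Cd53, Upk1b and Cd9, at -1.16, -0.66 and -0.54. Its difference from the other WT libraries ran with the GC content of the longest transcript. The Spearman correlation was 0.721 over the 10 members, 0.665 over 23 tested tetraspanins and 0.622 over 11034 genes, which share the same libraries and are not independent. For IRF8KO replicate 2 against the other IRF8KO libraries the correlation was -0.636 over the members, -0.198 over the tested tetraspanins and -0.439 over all these genes. Upk1b, without counts in IRF8KO, entered these values at a fixed difference of 0. Tspan10, without counts in WT, entered those of WT replicate 3 in the same way. IRF8KO replicate 2 also held neutrophil transcripts. The summed level of 8 neutrophil markers was 357.5 CPM there and at most 2.41 CPM in every other library. The part of either library trait in the results was not tested, and leave-out values are given with each member that they move. Without IRF8KO replicate 2, Cd63 was at 2.81 and Cd151 at 2.62.

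**Figure D2:**
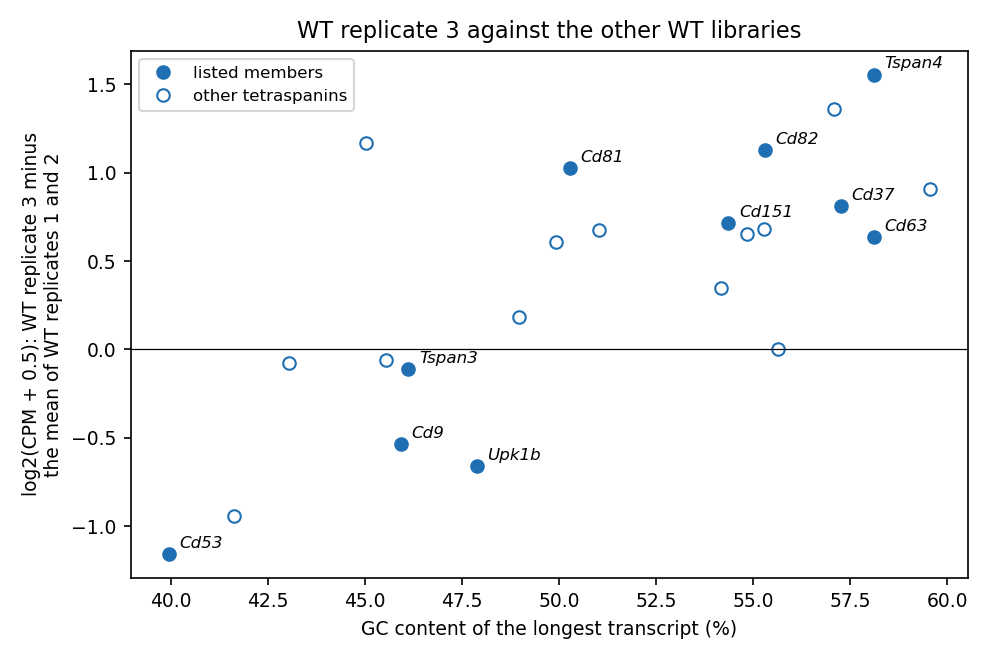
Difference of WT replicate 3 from the mean of WT replicates 1 and 2 (log2 of CPM + 0.5, y axis) against the GC content of the longest transcript in percent (x axis), for the tested tetraspanins. Points are genes, filled and named for the 10 members and open for the others: Tspan4 is at 1.55 and Cd53, with the lowest GC content of the members, at -1.16.

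Per kilobase of exon, which allows levels of different genes to be set side by side, Cd81 was the most abundant of the members in both groups, at 3073 ± 1374 CPM per kb in WT and 2665 ± 730 in IRF8KO (SD, n = 3). In WT it was followed by Cd53, Tspan4, Cd9, Cd37, Cd82, Cd63, Upk1b, Tspan3 and Cd151. The ranges of adjacent neighbours in that order overlap from Cd53 to Tspan3, though genes further apart, such as Cd53 and Cd63, do not overlap. Within every WT library Cd37 still stood above Cd82, Cd82 above Cd63 and Upk1b above Tspan3. The other neighbours from Cd53 to Tspan3 changed places between WT libraries. Cd81 above Cd53 and Tspan3 above Cd151 do not overlap. In IRF8KO the order was Cd81, Cd63, Cd9, Cd37, Tspan4, Cd53, Cd82, Tspan3, Cd151 and Upk1b. There the only neighbours whose ranges overlap were Tspan4 with Cd53 and Cd53 with Cd82. Cd63 was at 96.9 ± 26.2 CPM per kb in WT, below the ranges of Cd53 and Cd9, and at 606 ± 125 in IRF8KO, above the ranges of both. Cd53 was at 309.9 ± 124 in WT, where it lay below Tspan4, Cd37 and Cd82 in replicate 3, and at 122 ± 33.7 in IRF8KO.

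The summed level of the whole family, 31 genes, was 4975 ± 1654 CPM per kb in WT and 5134 ± 1075 in IRF8KO, with overlapping ranges. The 10 members made up 86.9% ± 1.21 of it in WT and 84.5% ± 0.746 in IRF8KO (SD, n = 3). Within that sum, Cd63 took 2.09%, 1.98% and 1.85% in WT replicates 1, 2 and 3, and 10.6%, 11.4% and 13.6% in IRF8KO replicates 1, 2 and 3. The share was tight in WT and did not overlap between groups. Cd81 took 60.3% ± 6.45 in WT and 51.5% ± 3.63 in IRF8KO, with overlapping values. Cd9 took 4.33% ± 1.88 in WT and 7.84% ± 1.22 in IRF8KO. The share of Cd53 was 7.15% ± 4.21 in WT and 2.53% ± 1.096 in IRF8KO, with overlapping values, and that of Upk1b was 1.51% ± 0.701 and 0. Cd82 took 2.88% ± 0.430 and 1.43% ± 0.0447. The values of Cd9, Cd82 and Upk1b do not overlap between groups. With 3 libraries against 3, an exact permutation test cannot give a p below 0.10, so no test is given for shares. Counted against Cd81 in the same library, Cd63 had 4.81, 4.38 and 3.50 counts per 100 in WT replicates 1, 2 and 3, and 24.4, 29.3 and 35.3 in IRF8KO replicates 1, 2 and 3.

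**Figure D3:**
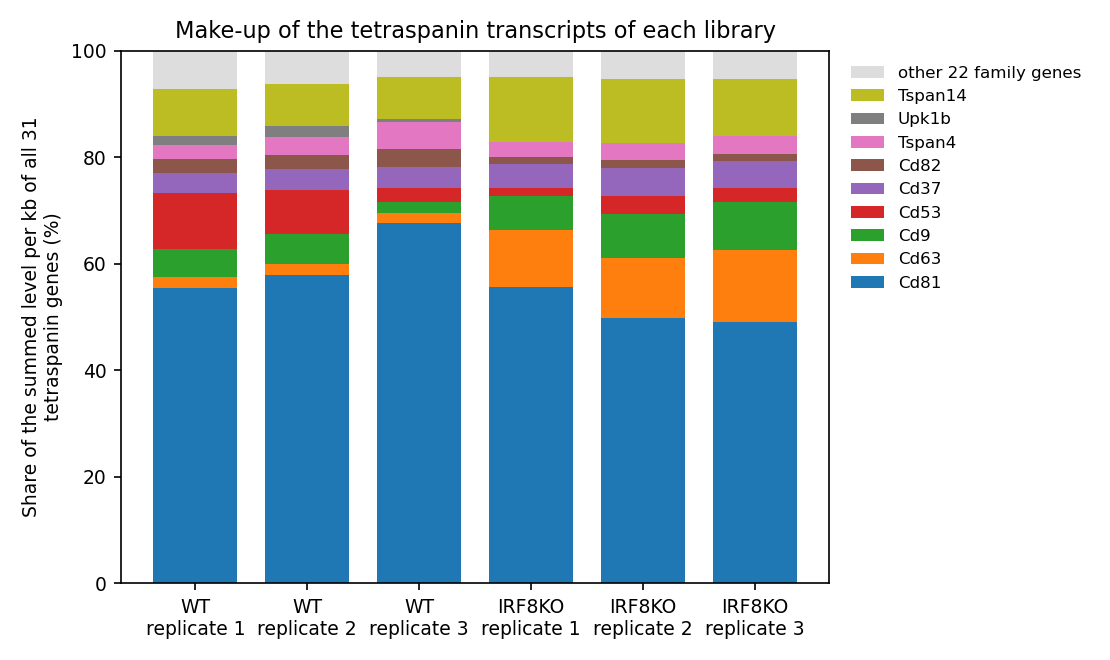
Share of 9 genes, 8 of them members, and of all other tetraspanins together (light grey) in the summed tetraspanin level per kilobase of exon, in percent (y axis), for each of the 6 libraries. Cd81 takes the largest share in each library, Cd63 is at 1.97% on average in WT and 11.9% in IRF8KO, and Upk1b has no share in the IRF8KO libraries.

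Among the 21 other tetraspanins, 5 of the 13 tested were called higher, 4 lower and 4 not at all, beside 9.64% higher and 9.46% lower over all tested genes. The median log2 fold change of the 13 was -0.09. Tspan8 and Tspan10 passed the filter through IRF8KO alone, which fixed their direction, so nothing is read from this count. Those called higher were Tspan8, Tspan10, Tspan17, Tspan32 and Tspan9. Tspan32, a tetraspanin of blood cells, went from 28.0, 47.9 and 57.9 CPM in WT to 135, 129 and 161 CPM in IRF8KO, a log2 fold change of 1.67 (SE 0.32; adjusted p = 0.0037, edgeR, Benjamini-Hochberg). Tspan8 and Tspan10 were nearly or wholly missing from WT. Tspan8 had 8 counts in WT as a whole and 294 in IRF8KO, and Tspan10 had 0 and 89, at least 29.58-fold higher with the WT floor of 3 counts over the group. Both stayed at low levels in IRF8KO, 11.4 ± 2.003 and 3.14 ± 1.09 CPM. Tspan17 had a log2 fold change of 2.16 and Tspan9 of 1.09 (adjusted p = 0.0192 and 0.0317, edgeR, Benjamini-Hochberg). Each lost its call without WT replicate 1 or 2 or IRF8KO replicate 1 or 3, with adjusted p up to 0.0905 for Tspan17 and 0.155 for Tspan9 in the same edgeR test. With library size alone Tspan17 was at 1.69 and not called (adjusted p = 0.0542, edgeR, Benjamini-Hochberg).

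Those that fell were Tspan13, Tspan18, Tspan33 and Tspan7. Tspan13 had 132, 128 and 124 CPM in WT and 23.3, 10.2 and 16.8 CPM in IRF8KO, with narrow WT values and no overlap. Its log2 fold change was -2.94 (SE 0.34; adjusted p = 1.5e-04, edgeR, Benjamini-Hochberg). Tspan5, Tspan10, Tspan14, Tspan15, Tspan17 and Tspan33 form the group that carries the protease ADAM10 to the surface. Of these, Tspan33 fell from 83.2 ± 42.6 to 15.0 ± 5.595 CPM, a log2 fold change of -2.48 (SE 0.42; adjusted p = 0.0018, edgeR, Benjamini-Hochberg). Tspan14 had 884.1, 897 and 1423 CPM in WT and 2004, 1296 and 1458 CPM in IRF8KO. Per kilobase its WT mean was the next after Cd81, through WT replicate 3 alone, since Cd53 stood above it in WT replicates 1 and 2. Its groups overlap, and its log2 fold change was 0.57 (SE 0.34; adjusted p = 0.258, edgeR, Benjamini-Hochberg). Without WT replicate 3 it was 0.86 and called. Tspan18 fell by 2.66 on the log2 scale and Tspan7 by 1.07 (adjusted p = 6.9e-04 and 0.0163, edgeR, Benjamini-Hochberg), and Tspan7 was at -0.51 and not called with the offset for GC content. Tspan7 was also not called without WT replicate 1 or 2 or IRF8KO replicate 2 or 3 (adjusted p up to 0.107 in edgeR). Tspan5, Tspan31 and Rom1 were not called. Tspan31 shares 29.2% of its exonic length with Cdk4. Tspan1, Tspan11 and Prph2 had 0 counts in all 6 libraries, and Tspan2, Tspan6, Tspan12, Tspan15 and Upk1a were too low to test.

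**Figure D4:**
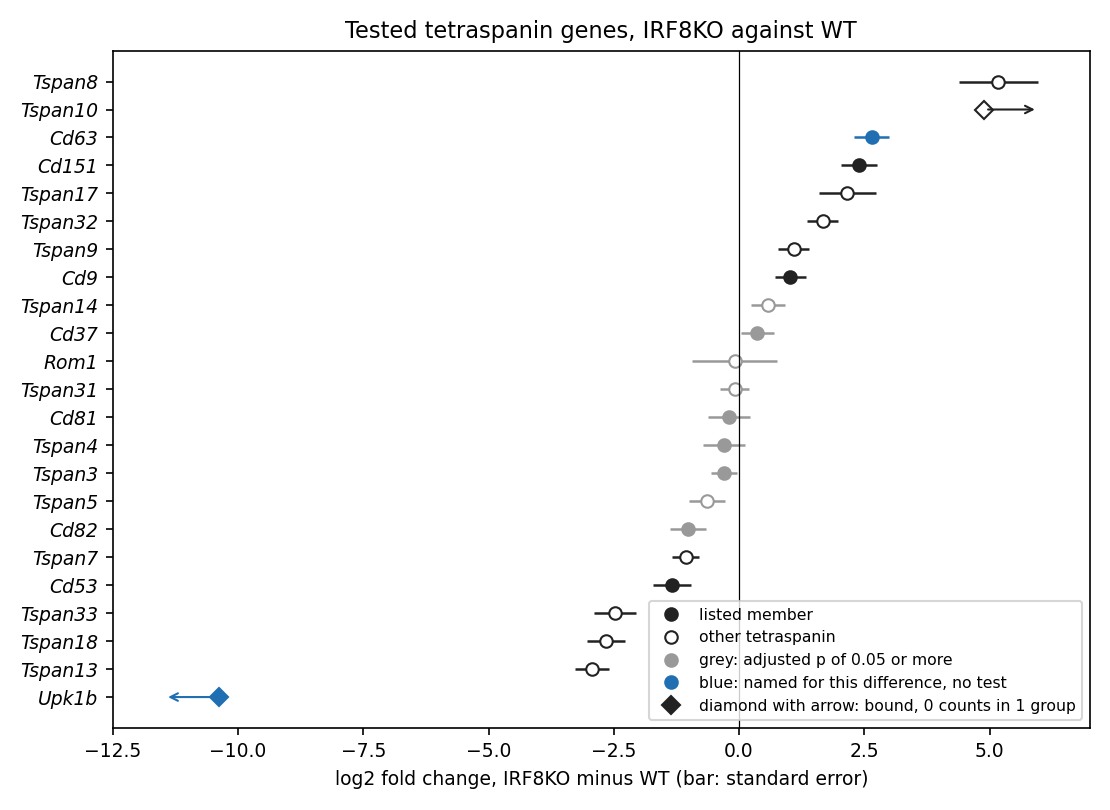
Log2 fold change (x axis, IRF8KO to WT) of the 23 tested tetraspanins, with bars for the standard error. Filled points are the 10 members and open points the other 13. Grey points have an adjusted p of 0.05 or more. Upk1b and Cd63 are in blue, with no test. Diamonds with arrows are bounds for genes with 0 counts in a group, Upk1b and Tspan10.

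Transcripts of proteins that tetraspanins hold were described from a list of 16 partner genes. Of these, 10 were tested, with 3 called higher, 2 lower and 5 not called, and a median log2 fold change of 0.22. Over all tested genes 9.64% were called higher and 9.46% lower. Itga4 and Ifitm1, among the higher, passed the filter through IRF8KO alone, which fixed their direction, so nothing is read from this count. Adam10, the protease guided by the tetraspanins of the Tspan14 and Tspan33 group, had 77.4, 67.3 and 42.1 CPM in WT and 3.37, 27.9 and 5.64 CPM in IRF8KO. IRF8KO replicate 2 stood well above the other IRF8KO libraries, and the log2 fold change was -2.31 (SE 0.63; adjusted p = 0.0234, edgeR, Benjamini-Hochberg). The call was lost without IRF8KO replicate 1 or 3 (adjusted p up to 0.135 in edgeR) and with library size alone (-2.71, adjusted p = 0.0521), and without IRF8KO replicate 2 the value was -3.76. Itgb1, the integrin chain that joins CD151 and CD81 complexes, fell by 1.25 on the log2 scale (SE 0.39; adjusted p = 0.0415, edgeR, Benjamini-Hochberg), with overlapping groups. Its call was lost without WT replicate 1 or 2 or IRF8KO replicate 1 or 3 (adjusted p up to 0.198 in edgeR), with TMM without Apoe (0.0643) and with the second stranded column (0.0508). Itga4, which pairs with Itgb1, had 4 counts over WT and 251 over IRF8KO, 183 of them in IRF8KO replicate 2. Ifitm1, an interferon-induced protein found in CD81 complexes, had 2 counts over WT and 258 over IRF8KO, which is 129 times as many after scaling (exact 95% counting interval 35.2 to 1068). Both WT counts were in WT replicate 2, so the size of this ratio rests on that library. Clec7a, the fungal receptor dectin-1, which associates with CD37 and CD63, rose with a log2 fold change of 3.23 (SE 0.47; adjusted p = 7.1e-04, edgeR, Benjamini-Hochberg). Itgb2 and Igsf8, the most abundant partners per kilobase besides these, had log2 fold changes of -0.11 and 0.35 and were not called. Without WT replicate 3, Igsf8 was at 0.81 and called (adjusted p = 0.0372, edgeR, Benjamini-Hochberg).

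CD63 works in endosome sorting and vesicle release. Of 12 listed genes of that machinery, 11 were tested and 2 fell, Vps4b and Rab27a, a share near the 19.1% called over all tested genes and so no result about the machinery. Their median log2 fold change was -0.79, beside -0.11 over all tested genes. Rab27a, which docks secretory vesicles at the membrane, had 67, 219 and 57 counts in WT and 9, 33 and 20 counts in IRF8KO, or 12.1 ± 3.90 and 2.19 ± 0.759 CPM (SD, n = 3). The level was low in both groups, and their scaled values do not overlap. The log2 fold change was -2.45 (SE 0.53; adjusted p = 0.0077, edgeR, Benjamini-Hochberg). The WT libraries by themselves carried Rab27a past the filter. The IRF8KO libraries by themselves would not have, since replicate 1 fell just short. Vps4b, an ATPase that takes apart the sorting complex, fell by 1.40 on the log2 scale (SE 0.41; adjusted p = 0.0325, edgeR, Benjamini-Hochberg), and with the offset for GC content it was -0.76 and not called. It was also not called without WT replicate 1 or 2 or IRF8KO replicate 1 or 3 (adjusted p up to 0.140 in edgeR) or with the second stranded column (-1.20, adjusted p = 0.0590). Lamp1, a membrane protein of lysosomes, had 735, 650 and 823 CPM in WT and 1006, 942 and 936 CPM in IRF8KO. Those groups do not overlap, but Lamp1 was not called, with a log2 fold change of 0.38 (SE 0.28; adjusted p = 0.373, edgeR, Benjamini-Hochberg), and -0.11 with library size alone. Ap2m1 and Hgs, of endocytosis and endosome sorting, were not called either. Without WT replicate 3, Lamp1 was at 0.51 and Ap2m1 at 0.78, both called (adjusted p = 0.0469 and 0.0109, edgeR, Benjamini-Hochberg).

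The 10 members differed in how far they held under other settings. Cd151 kept its call in all 18 alternatives. Cd9 and Cd53 each lost their call in 7 of 18. Cd82 gained one in 8, and Cd37, Cd81 and Tspan3 in 1 each. Tspan4 was called in none.

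**Figure D5:**
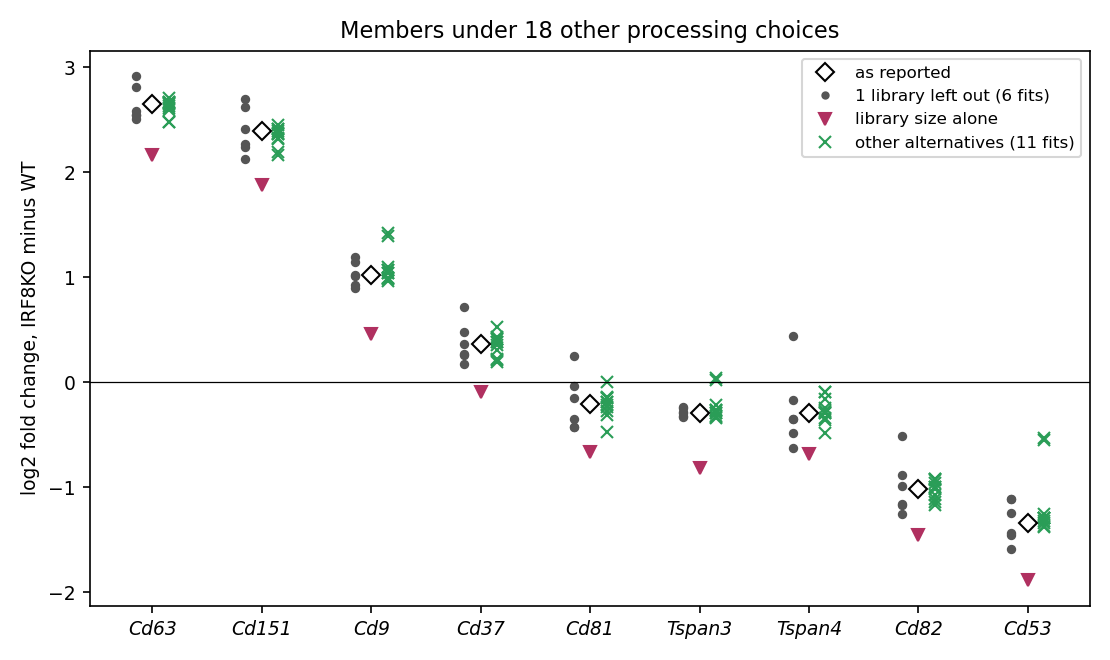
Log2 fold change (y axis, IRF8KO to WT) of 9 members, without Upk1b, as reported (diamonds) and in each of the 18 alternatives (dots for fits with 1 library left out, triangles for library size alone, crosses for the others). Cd63 stays between 2.16 and 2.92, and the values of Cd81, Cd37, Tspan3 and Tspan4 lie on both sides of 0.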

How the data were processed

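Counts per gene were deposited by the authors for 6 libraries as 3 columns, of which the unstranded one was used. Per the labels' protocols, cDNA was made with SMART-Seq v4 and tagged with Nextera XT, with neither strand nor molecular identifiers, so counting intervals and floors cover counting error only. The submitters' processing notes name STAR 2.5.2b, Picard 2.17.11, Subread, featureCounts and mm10; the annotation release is not given in the sources used here. Reads outside genes (2.44% to 7.70% of uniquely mapped reads) stayed out of library sizes. Of 49585 genes, 259 were not matched to GENCODE M21 on GRCm38, which gave symbols, positions and exonic length.

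Counts were tested with edgeR 4.0.16 (R 4.3.3): minimum count 10, TMM, the quasi-likelihood F test on genotype alone and Benjamini-Hochberg adjustment over 11041 genes. The standard error came from the F statistic. Where a group had 0 counts, a fold is a bound against 3 counts over the group. The code was tested on simulated data. The members, gene lists and tests were chosen with earlier results of these data known. Named genes were all members, any tested tetraspanin, and, of the partner and vesicle lists, those called and the 3 most abundant per kilobase. Alternatives covered scaling, tool (DESeq2 1.42.0, limma 3.58.1), filter, strand column, GC offset, replicate block, length and leaving out each library. Replicates are separate brains per the labels, and no 2 files of a group agreed within sampling noise (chi-square per degree of freedom at least 9.14).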

Additional observations from a re-analysis of the deposited data

How the results depend on the processing

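Scaling by library size alone gave 2559 calls over all genes, 25.4% of them higher, against 2109 and 50.5% with TMM, and moved the median of all genes from -0.11 to -0.61. It called 7 members, 2 higher and 5 lower, instead of 5, 3 higher and 2 lower. Itgb2, Hgs and Tspan31 were also called lower with library size alone, at -0.59, -0.61 and -0.58 (adjusted p = 0.0182, 0.0333 and 0.0209, edgeR, Benjamini-Hochberg). Leaving out 1 library at a time gave 910 to 4003 calls over all genes, the extremes without IRF8KO replicate 3 and WT replicate 3, and 1308, 1171 and 1147 without WT replicate 1, WT replicate 2 and IRF8KO replicate 1. It gave 3 to 6 called members, 3 of them without WT replicate 2 or any 1 IRF8KO library, 6 to 10 called other tetraspanins, and 4 to 13 called partners and vesicle genes, 13 without WT replicate 3 and 4 without IRF8KO replicate 1 or 3. A gene that missed the threshold in 3 against 3 libraries is not shown to be unchanged. With the longest transcript as length, the share of Cd81 was 67.6% in WT and 58.8% in IRF8KO.

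Log2 fold changes turned sign for genes that were not called, and the cause was not tested. Leaving out 1 library at a time gave -0.43 to 0.24 for Cd81, -0.63 to 0.44 for Tspan4, -0.21 to 0.17 for Tspan31, -0.73 to 0.68 for Rom1, -0.23 to 0.15 for Itgb2 and -0.30 to 0.052 for Hgs, each highest without WT replicate 3. Hgs was also above 0 without IRF8KO replicate 2 or 3, Tspan31 without IRF8KO replicate 2 and Rom1 without IRF8KO replicate 3. The first stranded column gave 0.0027 for Cd81 and 0.043 for Tspan31. With library size alone, Cd37 was at -0.10, Igsf8 at -0.11 and Lamp1 at -0.11. Tspan3 was at 0.021 with the GC offset and at 0.041 with the replicate block and that offset.

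The labels give both groups replicate numbers without saying that they pair samples. Deviations of same-numbered libraries correlated at -0.26, 0.33 and 0.11, and not every library correlated best with its own number. With the replicate block, 2353 genes and 4 members were called, Cd9 no longer (adjusted p = 0.0626, edgeR, Benjamini-Hochberg), and with the block and the GC offset 2499 genes and 5 members.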
